A study of Mus musculus with 3 samples.

Results

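The genes described here drive the cell cycle and license DNA replication: the A-, B-, D- and E-type cyclins, the cyclin-dependent kinases Cdk1 to Cdk7, 6 Cdk inhibitors of the Cip/Kip and Ink4 families, the retinoblastoma (pocket) proteins, the E2f transcription factors, the Mcm proteins, and Pcna, Cdt1, Cdc6, Gmnn and Orc1. Members were chosen by gene symbol among probe sets annotated with a single gene, and a gene with several probe sets was represented by the one with the highest mean. This gave 46 of the 17097 genes measured. They comprised 9 cyclins, 7 Cdks, 6 inhibitors, 3 pocket proteins, 8 E2f factors and 13 licensing and replication genes. RNA came from a single group of mouse cells, mammary cells with high CD49f (integrin alpha 6) and high Lgr5 signal, isolated by flow cytometry at embryonic day 14 from females carrying the Lgr5-IRES-GFP reporter, in which green fluorescent protein is made from the Lgr5 locus. The 3 replicates were 3 litters, each litter the pooled female embryos of 1 pregnancy on 1 Affymetrix array, and no other genotype, stage or treatment was measured. The digest before the sort held epidermis as well as mammary gland, and either 813 or 2000 cells per sample were sorted, without a statement of which sample had which number.

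A cell enters the cycle when D-type cyclins with Cdk4 or Cdk6, and then E-type cyclins with Cdk2, phosphorylate the pocket proteins, which releases E2f factors to switch on the genes of DNA replication. Before replication the origin recognition complex, Cdc6 and Cdt1 load the Mcm helicase onto origins, and geminin, the product of Gmnn, blocks Cdt1 after replication has begun. A- and B-type cyclins with Cdk1 then carry the cell through to mitosis, while Cip/Kip and Ink4 proteins hold the kinases back.

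Since the series had no control group, each gene was set against a background measured on its own arrays. The threshold of an array was the 95th percentile of 76 olfactory and vomeronasal receptor genes, and came to 6.29 for replicate 1, 6.24 for replicate 2 and 6.24 for replicate 3 in log2 units. A gene was called above background when limma's moderated test of its mean margin over the threshold, one-sided and adjusted by Benjamini-Hochberg over all 17097 genes, gave an adjusted p under 0.05. Of all genes, 8955 were called, or 52.4%. No receptor gene was, but these genes set the threshold, so their absence is no check of the call. Of 44 genes restricted to unrelated tissues, 11 were called. The median of all genes was 6.83, 6.82 and 7.02 on the 3 arrays, so replicate 3 read higher than the others across the genome. The 6 genes that mark the sorted cells (Lgr5, Itga6, Trp63, Krt5, Krt14 and Epcam) were all above background. So were 10 of 11 dermal mesenchyme markers (all but Pdgfra), 3 of 10 suprabasal and periderm markers, 1 of 5 endothelial, 2 of 5 leukocyte, 2 of 4 erythroid and 1 of 4 skeletal muscle markers. Among these were the collagen gene Col1a1 at a log2 value of 12.99 ± 0.15 (SD, n = 3) and the adult alpha globin gene Hba-a1 at 12.02 ± 0.74. The part of such cells in the cell cycle signal was not tested, and in pooled RNA fewer cycling cells cannot be told from less RNA per cell.

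Most of the cell cycle machinery was above background. Of the 46 members, which were chosen with earlier results of these data known, 32 were called (69.6%), beside 52.4% of all genes. The median margin over the threshold was 2.01 log2 units for the members and 0.62 for all genes. All 32 were over the threshold on each of the 3 arrays, which the call itself favours. Of all 17097 genes, 9513 were over it on each array and 5669 were below it on each. Of the 14 members not called, 7 were below the threshold on all 3 arrays, 3 were over it on replicate 3 alone, and 4 on 2 arrays. With a higher threshold, the 95th percentile of 44 genes restricted to unrelated tissues, 25 of 46 members and 35.1% of all genes were called. Log2 values of different probe sets are not a scale for comparing genes with each other, so each member is read against the threshold and across litters only.

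**Figure D1:**
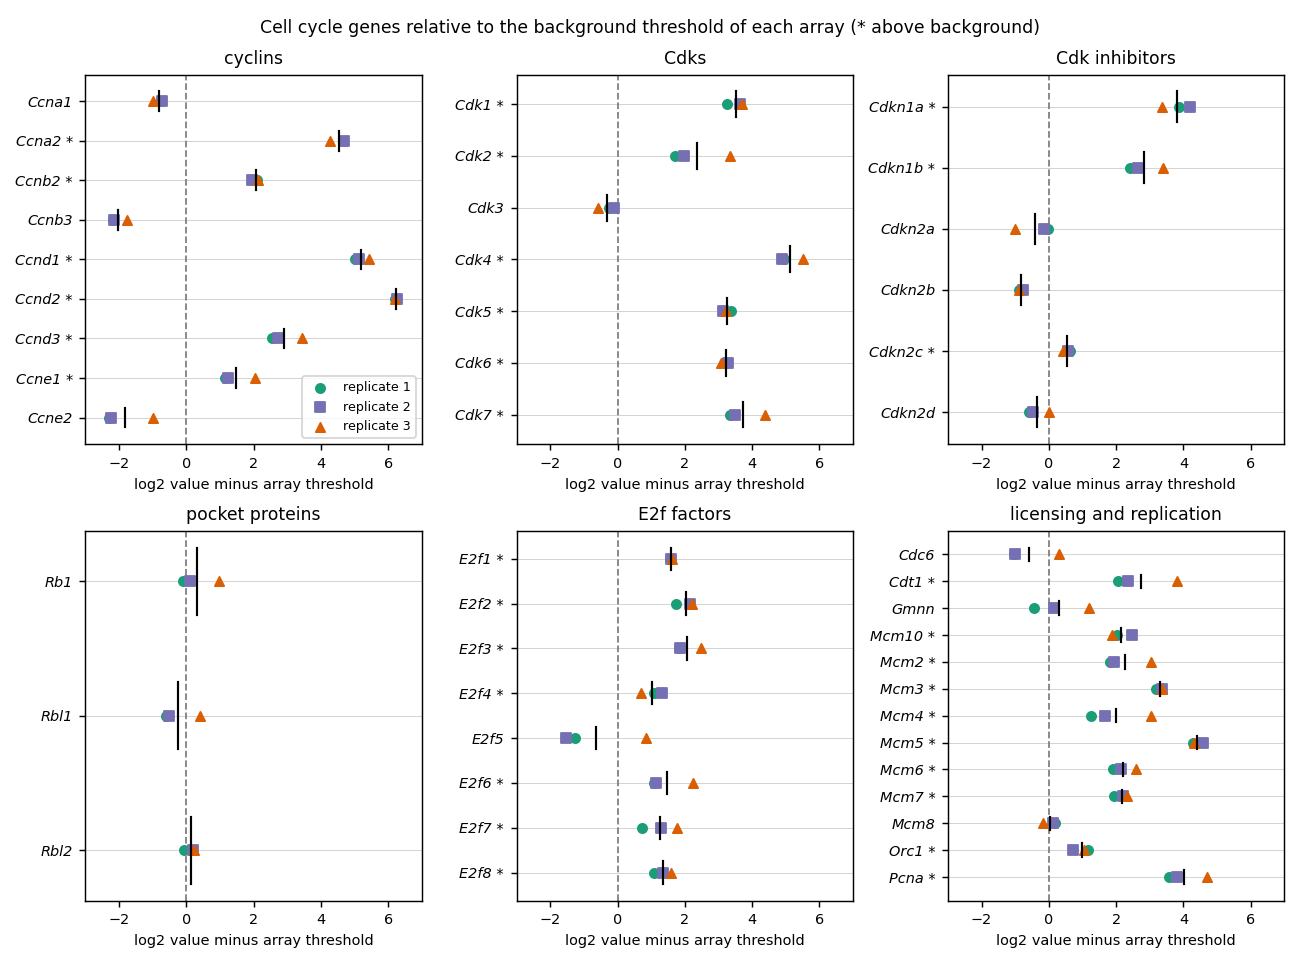
Log2 value minus the threshold of its array (x axis) for each of the 46 members (y axis), in panels by role; green circles, purple squares and orange triangles are replicates 1, 2 and 3, black ticks are means, the dashed line is the threshold, and an asterisk marks a gene above background. All 3 arrays lie to the right of the line for each of the 32 genes above background, and 7 genes lie to the left of it on all 3 arrays.

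All 3 D-type cyclins, which couple growth signals to Cdk4 and Cdk6, were above background. Ccnd1, the cyclin D1 gene, measured 11.30, 11.38 and 11.66 in litters 1, 2 and 3, on the log2 scale used for every level here (margin 5.19 ± 0.12, SE, adjusted p = 7.22e-06). Ccnd2 had 12.49, 12.51 and 12.43, a range of 0.08 (adjusted p = 2.83e-06). Ccnd3 had 8.84, 8.96 and 9.68 (adjusted p = 0.000138). For these probe sets the spread between litters was smaller than the margin in each of the 3 genes. The other probe sets of Ccnd1 differed more between litters, with replicate 3 above the mean of the others by 1.33 and 1.13, beside 0.32 for the one used. All 6 probe sets of Ccnd2 and all 3 of Ccnd1 were over the threshold, while 1 of the 2 of Ccnd3 was below it (mean margin -0.97).

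Of the other cyclins measured, 1 of each type was above background and 1 was not. The B-type cyclin gene Ccnb1 had no probe set annotated with it alone and was not measured here. Among the E-type cyclins, which activate Cdk2 at the start of S phase, Ccne1 had 7.44, 7.48 and 8.27 (margin 1.47 ± 0.22, SE, adjusted p = 0.00187), and Ccne2 had 4.0, 4.02 and 5.25, below the threshold on every array. The Ccne1 call was lost with tissue-restricted genes as background (adjusted p = 0.0642) and with the brightest non-specific control (0.191). Of the A-type pair, Ccna2, the cyclin A of dividing somatic cells, had 10.96, 10.92 and 10.51 (margin 4.54 ± 0.13, SE, adjusted p = 1.11e-05). Ccna1, the cyclin A known from the germ line, had 5.55, 5.51 and 5.25 and was not called. Of the B-type genes, Ccnb2, a mitotic partner of Cdk1, had 8.40, 8.19 and 8.38 (adjusted p = 9.14e-05). Ccnb3, known from meiosis, had 4.11, 4.10 and 4.48 and was not called. In all, 6 of 9 cyclins were above background. The absence of a call does not show that a gene was silent, since each of the 3 uncalled cyclins was measured by a single probe set.

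Of the 7 kinases, 6 were above background. Cdk1, the mitotic kinase, had 9.53, 9.89 and 9.95 (margin 3.53 ± 0.15, SE, adjusted p = 2.63e-05). Cdk4 had 11.23, 11.14 and 11.74 (adjusted p = 1.24e-05), and all 3 of its probe sets were over the threshold by a mean of 4.40 or more. Cdk6, the other partner of D-type cyclins, had 9.55, 9.53 and 9.32 (adjusted p = 2.22e-05). Both kinases of the first G1 step were thus measured well above the threshold in each litter. Cdk2, the partner of cyclins E and A, had 8.01, 8.22 and 9.57 (margin 2.35 ± 0.35, SE, adjusted p = 0.0017). Its value on replicate 3 stood apart from the closely placed values of the other litters. Cdk7, the kinase of the Cdk-activating complex, had 9.63, 9.74 and 10.62, and Cdk5, best known from neurons, had 9.66, 9.39 and 9.46. The gene not called was Cdk3, at 6.04, 6.15 and 5.66. RefSeq lists it as a transcribed pseudogene in the reference mouse strain.

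Of the 6 inhibitors, 3 were above background. Both Cip/Kip genes in the set were among them. Cdkn1a, which encodes p21 and is induced by p53, had log2 values of 10.16, 10.45 and 9.60 (margin 3.81 ± 0.19, SE, adjusted p = 4.26e-05). Cdkn1b, which encodes p27, a brake associated with cell cycle exit, had 8.71, 8.89 and 9.63 (margin 2.82 ± 0.23, SE, adjusted p = 0.000184). The litter of replicate 3 was lowest for Cdkn1a and highest for Cdkn1b. Both probe sets of each gene were over the threshold.

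Of the 4 Ink4 genes, whose products bind Cdk4 and Cdk6, 1 was called. This was Cdkn2c, which encodes p18, at 6.91, 6.80 and 6.67 (margin 0.54 ± 0.13, SE, adjusted p = 0.00942). Its call rested on the choice of threshold and on the number of arrays: it was lost at the 99th percentile of the receptor genes (adjusted p = 0.347), without replicate 1 (0.119) and without replicate 2 (0.107), and the margin turned negative with tissue-restricted genes as background (-0.365). Cdkn2a, the locus of p16 and p19Arf that is linked to senescence, had 6.26, 6.08 and 5.22. Cdkn2b, which encodes p15, had 5.42, 5.47 and 5.36, and Cdkn2d, which encodes p19, had 5.71, 5.79 and 6.23. These 3 genes lay under the threshold on every array. Cdkn2a came nearest on replicate 1 (margin -0.03) and was lowest on replicate 3 (-1.02), while Cdkn2d reached the threshold to within -0.002 on replicate 3.

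None of the 3 pocket protein genes was called by limma, and none had an unadjusted p under 0.05. Rb1, the retinoblastoma gene, had log2 values of 6.20, 6.34 and 7.20 (margin 0.32 ± 0.24, SE, adjusted p = 0.213). Rbl1, which encodes p107, had 5.69, 5.73 and 6.64, and Rbl2, which encodes p130, had 6.23, 6.45 and 6.47 (adjusted p = 0.334). Each of the 3 was highest on replicate 3, and Rb1 and Rbl1 were over the threshold there by 0.97 and 0.40. The second probe set of Rb1 was below the threshold (mean margin -1.33), as was that of Rbl2 (-0.76). The second probe set of Rbl1 also stood highest on replicate 3, at 7.30 after 5.12 and 5.24. The count of called pocket proteins was 0 in each of the 12 alternative settings, which all used the same arrays. A higher threshold left no room for a call. At the 99th percentile of the receptor genes the margins were -0.05 for Rb1, -0.61 for Rbl1 and -0.25 for Rbl2. With the main threshold, Rb1 and Rbl2 were each over it on 2 arrays. Whether the pocket protein genes were silent was not tested.

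Of the 8 E2f genes, 7 were above background, and E2f5 was not. Among the activators that drive S phase genes, E2f1 had 7.86, 7.84 and 7.85, a range of 0.02 over the litters (margin 1.59 ± 0.13, SE, adjusted p = 0.00019). E2f2 had 8.03, 8.40 and 8.45 (adjusted p = 0.000173), and E2f3 had 8.11, 8.11 and 8.70 (adjusted p = 0.000278). Both probe sets of each activator were over the threshold. The second probe set of E2f1 varied more between litters and was lowest on replicate 3 (-0.45 against the mean of the others). E2f4, a repressor that acts with pocket proteins, had 7.38, 7.56 and 6.94 (adjusted p = 0.00256). E2f6, a repressor that acts without them, had 7.37, 7.38 and 8.46 (adjusted p = 0.00399). The atypical repressors E2f7 (7.02, 7.53 and 8.0) and E2f8 (7.38, 7.58 and 7.82), which limit E2f targets late in the cycle, were over the threshold in each litter.

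E2f5, the pocket protein partner most like E2f4, gave 5.04, 4.71 and 7.07, the widest range of any member (2.35). It was 0.83 over the threshold on replicate 3, with margins of -1.26 and -1.53 on replicates 1 and 2. Its second probe set was highest in the same litter but under the threshold on every array (4.08, 4.12 and 5.25). The E2f count depended on the background: with tissue-restricted genes, or with the brightest non-specific control probe set as threshold, 3 of 8 were called, and E2f4, E2f6, E2f7 and E2f8 were lost under both. E2f1, E2f2 and E2f3 were the 3 that stayed.

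The replicative helicase was above background in each of its subunits. Mcm2 to Mcm7 form the ring that is loaded at origins, and all 6 genes were called. Mcm5 had log2 values of 10.58, 10.84 and 10.54 (margin 4.40 ± 0.12, SE, adjusted p = 9.85e-06), and Mcm3 had 9.46, 9.61 and 9.60 (adjusted p = 2.03e-05). Mcm6 had 8.21, 8.39 and 8.82, and Mcm7 had 8.23, 8.46 and 8.56. In the probe sets used, these 4 subunits varied by at most 0.62 between litters. Mcm2 (8.10, 8.18 and 9.27) and Mcm4 (7.55, 7.90 and 9.28) were further apart, with replicate 3 highest. In the other Mcm3 probe set replicate 3 was lowest (-0.83 against the mean of the other litters). The Mcm4 call was lost with the brightest non-specific control as threshold (adjusted p = 0.0784). Mcm10, which helps to fire the loaded helicase, had 8.32, 8.72 and 8.13 (adjusted p = 0.000186). Mcm8, a relative that acts in recombination, had 6.46, 6.36 and 6.05 and was not called (adjusted p = 0.679).

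The loading factors and their brake differed. Cdt1, which brings the helicase to origins, had 8.34, 8.60 and 10.04 (margin 2.73 ± 0.37, SE, adjusted p = 0.0012). Orc1, the largest subunit of the origin recognition complex, had 7.45, 6.97 and 7.27 (margin 0.97 ± 0.15, SE, adjusted p = 0.00202). The Orc1 call rested on 1 of 2 probe sets, the other lying below the threshold (mean margin -0.69), and was lost with the mean of both (adjusted p = 0.11) and with tissue-restricted genes as background (adjusted p = 0.792). Cdc6, the loader that acts with Cdt1, had 5.26, 5.23 and 6.54 and was not called. Gmnn, the gene of the Cdt1 inhibitor geminin, had 5.86, 6.39 and 7.42, which ran from 0.44 below the threshold to 1.18 above it (adjusted p = 0.35). Cdc6 and Gmnn were each measured by a single probe set. Pcna, the sliding clamp of the replication fork, had 9.86, 10.06 and 10.94 (margin 4.03 ± 0.25, SE, adjusted p = 7.41e-05). In all, 10 of 13 licensing and replication genes were above background.

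Some of the members carried E2F words in their promoters, a feature that the choice by symbol did not use. RefSeq promoter windows (GRCm38.p6, 250 bases before to 50 after the start) were listed for 35 of the 46 members, and 11 had no entry. The 11 were Ccna2, Ccnd1, Ccnd2, Ccne2, Cdk3, Cdk5, Rb1, E2f4, E2f5, Gmnn and Mcm4. An E2F word was searched as TTTGGCGC, TTTCGCGC, TTTCCCGC or TTTGCCGC on either strand. It was found in 15 of the 35 members (42.9%) and in 3.78% of the 13514 genes of the array with such a window. Counted by window, it was in 15 of 42 member windows (35.7%) and in 2.26% of all 32851 windows of the same length. By role, it was in 8 of 11 licensing and replication genes (Cdc6, Cdt1, Mcm3, Mcm5, Mcm6, Mcm7, Mcm8 and Orc1), 3 of 6 E2f genes (E2f2, E2f3 and E2f7), 2 of 5 Cdks (Cdk1 and Cdk2), 1 of 2 pocket proteins (Rbl1), 1 of 6 inhibitors (Cdkn2a) and none of 5 cyclins. The cyclin genes Ccna2, Ccnd1, Ccnd2 and Ccne2 had no window and were not searched. Sites that differ from the 4 words were not counted, so a gene without a word may still hold an E2F site. The word was found in 11 of the 26 members above background and in 4 of the 9 others. The 7 stretches of 60 bases that follow all lie upstream of the start and read 5′ to 3′ on the gene's strand, and the capitals mark the E2F words on either strand. Orc1 (chr4:108579394-108579453, plus strand), Mcm5 (chr8:75109334-75109393, plus strand), Mcm6 (chr1:128359719-128359778, minus strand), Cdk1 (chr10:69353010-69353069, minus strand) and Cdk2 (chr10:128705158-128705217, minus strand) are shown as genes above background. Cdc6 (chr11:98907987-98908046, plus strand) and Rbl1 (chr2:157204535-157204594, minus strand) are shown because they carry the same words and were not called.
Orc1: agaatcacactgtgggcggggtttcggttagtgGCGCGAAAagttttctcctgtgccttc
Mcm5: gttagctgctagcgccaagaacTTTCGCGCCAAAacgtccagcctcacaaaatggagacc
Mcm6: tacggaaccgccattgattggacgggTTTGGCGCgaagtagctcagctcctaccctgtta
Cdk1: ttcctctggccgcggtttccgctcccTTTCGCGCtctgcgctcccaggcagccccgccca
Cdk2: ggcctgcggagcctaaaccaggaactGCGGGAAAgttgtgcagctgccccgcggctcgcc
Cdc6: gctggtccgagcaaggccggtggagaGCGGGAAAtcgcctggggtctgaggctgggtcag
Rbl1: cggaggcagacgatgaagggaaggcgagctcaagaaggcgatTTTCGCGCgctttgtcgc

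In Mcm5 2 words on opposite strands overlap, which gives the longer run of capitals. Besides the E2F words, the CCAAT box, searched as CCAAT, was in 22 of 35 members (62.9%) and in 42.3% of array genes. The cell cycle homology region, searched as TTTGAA, was in 8 of 35 (22.9%) and in 15.7% of array genes. These are matches of letters in a fixed window, and binding was not measured here.

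**Figure D2:**
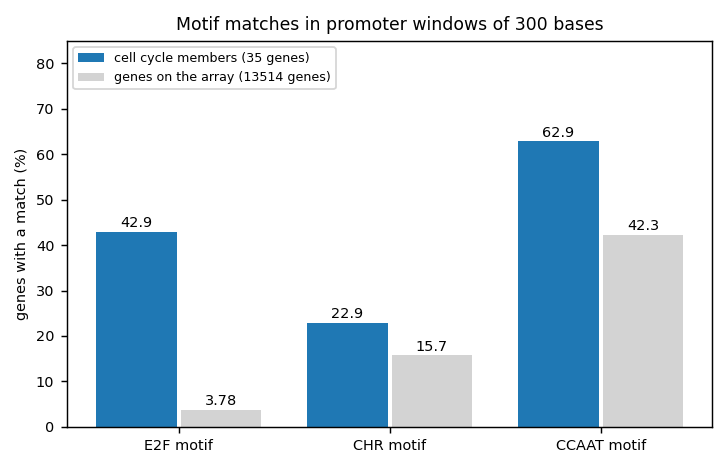
Share of genes (y axis, %) with at least 1 match to the E2F, CHR or CCAAT motif on either strand of a promoter window of 300 bases, for the 35 members with a window (blue) and the 13514 genes of the array with a window (grey). The E2F bars, 42.9% and 3.78%, differ by the largest factor of the 3 pairs.

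The litters differed in level across the whole array. On the deposited scale, the median difference from the mean of the other arrays was -0.28, -0.11 and 0.28 for replicates 1, 2 and 3 over the 32 members above background, and -0.11, -0.14 and 0.26 over all 8955 genes above background. For replicate 3 the members' median lay next to the shift of all genes. Replicate 3 held the highest value in 19 of the 32 members (59.4%) and in 63.2% of all genes above background. After quantile normalization of the 3 arrays the replicate 3 medians were -0.11 for the members and -0.12 for all genes, so the direction of the list turned with the scaling. Each litter was measured once, and these differences were not tested.

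Some members differed by more than that shift. Replicate 3 exceeded the mean of the other litters by over 1 log2 unit in 5 of 32 members (15.6%). Among all genes above background 9.18% did so. The 5 members were Cdt1 (by 1.56), Mcm4 (1.55), Cdk2 (1.45), Mcm2 (1.13) and E2f6 (1.09). Cdt1, Mcm4 and Cdk2 remained over 1 after quantile normalization, at 1.14, 1.12 and 1.03, while Mcm2 and E2f6 came to 0.70 and 0.69. The share of all genes over 1 on that scale is not given here. For Cdt1, a second probe set gave 1.24 and the last one, below the threshold on all arrays, gave -0.09. For Mcm2 the second probe set gave 1.11. Cdk2 and Mcm4 had 1 probe set each. Pcna came next at 0.98, with Cdk7 at 0.94.

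In the other direction, no member above background was more than 1 log2 unit below the other litters on replicate 3, beside 1.28% of all genes above background. The lowest was Cdkn1a, at -0.71 on the deposited scale and -1.14 after quantile normalization, with -0.73 for its second probe set. E2f4 (-0.53), Ccna2 (-0.43) and Mcm10 (-0.39) followed. For Ccna2 and Mcm10 the remaining probe sets had the opposite sign (0.06 for Ccna2, 0.49 and 0.52 for Mcm10). Over 4 ways of setting the level of an array, 15 of the 32 members stayed higher on replicate 3, 9 stayed lower, and 8, or 25%, changed sign with the scaling (Ccnb2, Cdk1, E2f1, E2f2, E2f8, Mcm3, Mcm7 and Orc1). Of all genes above background 40.2% stayed higher, 29.4% stayed lower and 30.4% changed sign. On the deposited scale, members above background with an E2F word had a median difference of 0.23 (n = 11 genes). Those with a window but no word had 0.55 (n = 15 genes), and all genes above background had 0.26. Ccna2, Ccnd1, Ccnd2, Cdk5, E2f4 and Mcm4 had no window and are in neither group. The difference between the groups was not tested.

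**Figure D3:**
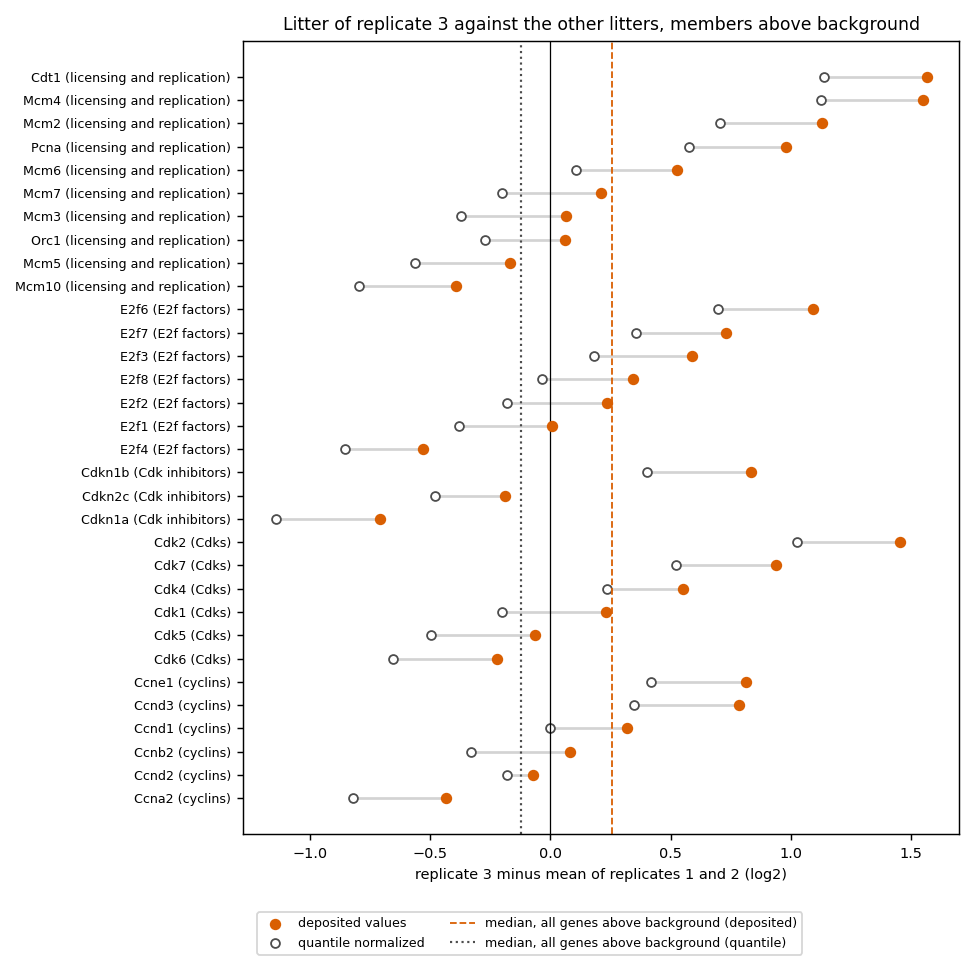
Replicate 3 minus the mean of replicates 1 and 2 (x axis, log2) for the 32 members above background, ordered by role, in the deposited values (orange) and after quantile normalization (open circles); vertical lines give the medians of all 8955 genes above background on each scale (dashed, 0.26; dotted, -0.12). Cdt1, Mcm4 and Cdk2 lie over 1 on both scales, and Cdkn1a is the lowest in the deposited values.

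Cell type markers also differed on replicate 3, and their part in the values above was not tested. The log2 values of the 6 sorted-cell markers summed to 63.2, 64.9 and 67.0 on replicates 1, 2 and 3, and those of the 11 dermal mesenchyme markers to 111.9, 110.9 and 110.8. The erythroid sums were 31.6, 32.1 and 29.5 over 4 genes, the endothelial sums 31.6, 31.6 and 30.2 over 5, and the skeletal muscle sums 24.5, 25.4 and 21.8 over 4. The suprabasal and periderm sums were 67.6, 69.1 and 66.4 over 10 genes, and the leukocyte sums 32.0, 32.4 and 32.9 over 5. All 6 sorted-cell markers were higher on replicate 3 than the mean of the other arrays (median difference 0.61). For Krt5 (0.03) and Krt14 (0.24) the difference was under the median of all genes above background, 0.26. Of the 10 mesenchyme markers above background 8 were lower on replicate 3 (median -0.22). Single genes carried much of the other sums, among them Krt4 (-3.11), Actc1 (-2.73) and Pecam1 (-1.74), while Krt10 (1.86) and Tek (0.85) had the opposite sign. Both erythroid genes above background, Hba-a1 (-1.25) and Klf1 (-1.40), were lower on replicate 3. In the lists of other cell types both called and uncalled genes were found: Cd68 and Fcer1g were above background and Ptprc, Csf1r and Tyrobp were not among leukocyte genes, Pecam1 was and Cdh5, Kdr, Tek and Emcn were not among endothelial genes, and Myod1 was and Myog, Myf5 and Actc1 were not among muscle genes. Of the suprabasal and periderm genes, Krt10, Sbsn and Grhl3 were called.

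Probe sets of 1 gene often disagreed in level. Of the 46 members, 26 had several probe sets, and in 8 of these (Ccnd3, Cdk5, E2f6, Cdt1, Mcm5, Orc1, Rb1 and Rbl2) they lay on both sides of the threshold. The widest gap was in Mcm5, between 4.40 and -1.48. Cdt1 followed, at 2.73 and -1.93. Among the 22 members above background with several probe sets, the sign of the replicate 3 difference was split between probe sets in 9 (Ccna2, Ccnd2, Cdk6, Cdt1, E2f1, E2f2, Mcm10, Mcm3 and Mcm7).

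**Figure D4:**
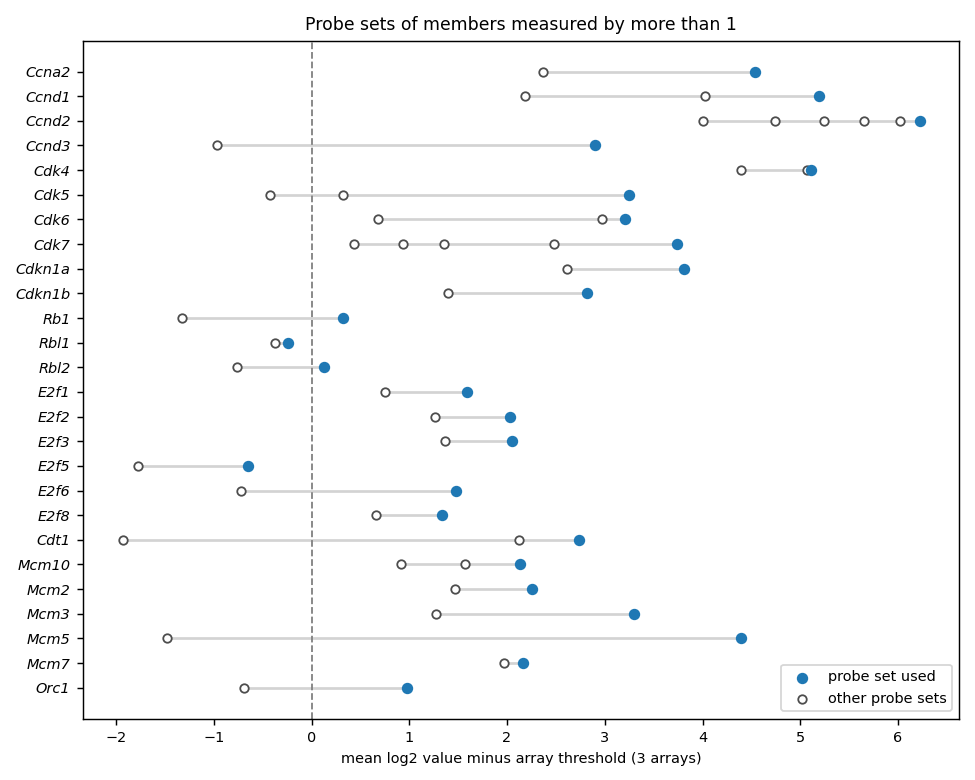
Mean log2 value minus the array threshold over the 3 arrays (x axis) of every probe set of the 26 members with more than 1 (y axis); blue points are the probe sets used and open circles the others, and the dashed line is the threshold. In 8 genes the probe sets lie on both sides of the line, with the widest gap in Mcm5.

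The partners of these genes were above background in most cases. Of 66 measured genes on a list of replication, E2f and Cdk partners, 59 were called (89.4% in the list, beside 52.4% of all genes). With tissue-restricted genes as background, 48 of the 66 were called, beside 35.1% of all genes. The list was chosen with earlier results of these data known. All 6 origin genes were called, among them Orc2 (8.26 ± 0.69, SD, n = 3), Orc4 (8.13 ± 0.48) and Orc5 (7.54 ± 0.56), which encode further subunits of the origin recognition complex. Of 7 genes that activate the loaded helicase 6 were called, including Cdc7 (8.06 ± 0.07), the kinase that fires origins, Cdc45 (7.55 ± 0.40) and Gins1 (8.61 ± 0.72). Dbf4, the activating subunit of Cdc7, was not, at 5.65, 5.66 and 7.63 on replicates 1, 2 and 3. As for the members Cdc6, E2f5 and Rbl1, replicate 3 alone was over the threshold.

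The MuvB complex silences cell cycle genes in resting cells when bound to pocket proteins. Of 8 genes listed as E2f partners, MuvB components or MuvB partners, 6 were above background. These included the dimerization partner genes Tfdp1 (9.08 ± 0.87) and Tfdp2 (8.73 ± 0.53, SD, n = 3) and Lin9 (7.51 ± 0.25), whereas Lin52 (6.21 ± 0.70) and Lin54 (6.35 ± 0.12) were not. Of 13 Cdk regulators 12 were called, such as the phosphatase genes Cdc25b (7.37 ± 0.27) and Cdc25c (6.95 ± 0.19) and the inhibitory kinase gene Wee1 (9.56 ± 0.38). The exception was Mnat1 (6.67 ± 0.52, adjusted p = 0.126), the assembly factor of the Cdk7 complex.

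At the replication fork, 16 of 19 genes were above background, with the DNA polymerase alpha and primase genes Pola2 (7.68 ± 0.21), Prim1 (8.35 ± 0.43) and Prim2 (9.40 ± 0.07, SD, n = 3) among them. The 3 others were Pola1 (6.33, 6.39 and 7.87), Rpa3 (6.31, 6.22 and 8.58) and the flap nuclease gene Fen1 (5.15, 4.98 and 5.40). All 3 were highest on replicate 3, and Fen1 was below the threshold on every array. The share highest on replicate 3 was 63.2% among genes above background, a set that leaves these 3 out. The 4 measured genes of nucleotide supply were all called, including the ribonucleotide reductase genes Rrm1 (9.81 ± 0.35) and Rrm2 (9.37 ± 0.19) and the thymidylate synthase gene Tyms (10.18 ± 0.02). All 3 genes that switch the anaphase-promoting complex on or off were called, namely the activators Cdc20 (9.47 ± 0.11), Fzr1 (8.73 ± 0.06) and the inhibitor Fbxo5 (8.51 ± 0.17). So were all 6 genes of p53 response and quiescence, among them Mdm2 (9.91 ± 0.19), Ccng1 (9.01 ± 0.36) and Ccng2 (7.75 ± 0.84). The median difference of replicate 3 among called partners was 0.33 on the deposited scale, next to 0.26 for all genes above background.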

How the data were processed

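The authors deposited log2 expression values per probe set. Per the submitters' processing notes they used RMA and the affy package, with no version or settings stated. It is not stated whether the 3 arrays were normalized together, and replicate 3 has another distribution. Per the labels' protocols, cDNA was amplified for 25 cycles before labelling, which may distort levels. The table held 45141 probe sets, of which 28898 had 1 gene symbol, 551 several and 15588 none listed (the other 104 were controls). Margins over the receptor threshold were tested in R 4.3.3 by limma 3.58.1, with an intercept alone and a variance trend on the mean. Python 3.11.15, pandas 2.3.3, numpy 2.4.6 and matplotlib 3.10.9 were used for the rest. The p-values leave out the uncertainty of the threshold, and the number of arrays limits precision. On simulated data (17097 genes), 48%, 70%, 90% and 100% of 50 genes each at margins of 0.25, 0.5, 1 and 2 were called. The simulation gave each gene an SD drawn at random from the real genes and independent noise, without a shift of a whole array. Its rates may therefore differ from those in the real data. Genes named from the partner list were all those not called and the first 3 called of each group. An inhibitor gene of the symbol pattern is not reported here. Members and lists were chosen with earlier results of these data known. Alternatives covered the threshold, probe sets, normalization, variance model, a filter on low values and each replicate left out.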

Additional observations from a re-analysis of the deposited data

How the results depend on the processing

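Of the 32 members above background, 24 kept the call under all 12 alternative settings, and no other member gained one. The members' count ran from 24 to 32. Against tissue-restricted genes it was 25 (6009 over all genes). Against the brightest non-specific control, an alternative chosen after seeing the data, it was 24 (5399 over all genes). The E2f count was 3 under both of these. Margins turned negative for Cdkn2c with tissue-restricted genes (-0.365) and the non-specific control (-0.589), and for E2f4 (-0.0905) and Orc1 (-0.153) with the latter. Leaving out the lowest quartile of genes raised the share of all genes called to 70.6%, beside 32 of 42 members (76.2%). Partner genes called ran from 45 to 61. The members' median difference from the other arrays reversed with quantile normalization for replicate 2 (0.0798, from -0.0899) and replicate 3 (-0.107, from 0.309 after subtraction of the threshold); the alternative sets all 3 arrays to 1 distribution. An alternative planned with controls of another name was not run, as none carried it. Arrays have no read depth. In the simulation, genes set to margins of 0.25 and 0.5 were called least often, as the smallest margins are the hardest to call.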
